A study of Mus musculus with 6 samples.

Results

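The genes described here are the nuclear genes of oxidative phosphorylation, 91 of the 17527 rows that the submitters kept in their filtered count table of female mouse submandibular glands (SMGs). They were chosen by symbol alone, as the Nduf, Sdh, Uqcr, Cox4 to Cox8, Cyc1, Cycs and Atp5 genes with pseudogenes left out. No measured difference entered this rule, but the genes were chosen with earlier results of these data known. By role, 36 were subunits of complex I, 4 of complex II, 9 of complex III, 15 of complex IV and 15 of complex V. The others were cytochrome c (Cycs) and 11 accessory genes that help to build or tune the complexes. Ndufa4 was counted in complex IV, with which it purifies, despite its symbol.

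RNA was sequenced from 3 wild-type (WT) glands and 3 glands of double knockout (DKO) mice, numbered 1, 4 and 5 in each group, with one whole gland per library. The DKO mice lack both Hs3st3a1 and Hs3st3b1, which encode heparan sulfate 3-O-sulfotransferases. Hs3st3a1 carries a germline frameshift deletion made with zinc finger nucleases in its first exon, and Hs3st3b1 carries a LacZ cassette. All animals were adult females on a C57BL/6 background and the controls were littermates, and neither the age nor the founder line of each library is given. WT and DKO mean here the libraries so labelled. The sources used here do not say whether the glands came from different animals, so the p-values measure only the spread between these glands. Because whole glands were sequenced, fewer cells of a type and less RNA per cell cannot be told apart.

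Oxidative phosphorylation takes place on the inner mitochondrial membrane. Complexes I and II feed electrons from NADH and succinate to ubiquinone, complex III passes them to cytochrome c, and complex IV hands them to oxygen. Complexes I, III and IV pump protons as they do so, and complex V, the ATP synthase, lets the protons back to make ATP. Most subunits are encoded in the nucleus, a smaller set in mitochondrial DNA. In salivary glands the striated duct cells, which pump salt out of the primary saliva, are known for their dense rows of mitochondria.

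The libraries held 23674258 to 29611975 counts, and 18606 rows with at least 10 counts over the 6 libraries were tested with the DESeq2 Wald test. The targeted genes did not separate the groups. Hs3st3b1 had 173, 203 and 261 counts in WT and 255, 120 and 189 in DKO, and Hs3st3a1 had 11 to 15 in WT and 8 to 13 in DKO. These are counts over the whole gene and do not show the altered part, so they cannot check the alleles. By qPCR the study found neither gene expressed in adult DKO glands of either sex, which these counts do not show. The acinar product Spt1 took 34.9% to 39.7% of all counts, and the secretory gene Mucl1 took 2.36% to 2.86% of counts in DKO and at most 0.00102% in WT. DKO 4 stands apart for the genes described here, so their group results, and the genes given with values in every library whose counts allow it, are also given without it.

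Promoter windows show what letters these genes share at their start sites. Of the 91 genes, 76 had a RefSeq promoter (GRCm38.p6), taken as 250 bases before to 50 after the start. Both strands were searched for 6 motifs. The NRF1 palindrome, named for the nuclear respiratory factor, lay in 19 genes or 25%, against 7.17% of all protein-coding genes. The ETS letters CCGGAAG, the kind read by GABP, lay in 17 or 22.4%, against 12.9%. The YY1 motif lay in 5 or 6.58%, against 1.63%, and the TATA box (TATAAA) in 6 or 7.89%, against 14.8%. The other two were near the background, with the Sp1 letters GGGCGG in 44.7% against 49.2% and CCAAT in 44.7% against 42.3%. NRF1 or ETS letters lay in 32 of the 76 genes, against 18.6% of protein-coding genes, and 4 genes held both. These counts are descriptions of letters and were not tested.

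**Figure D1:**
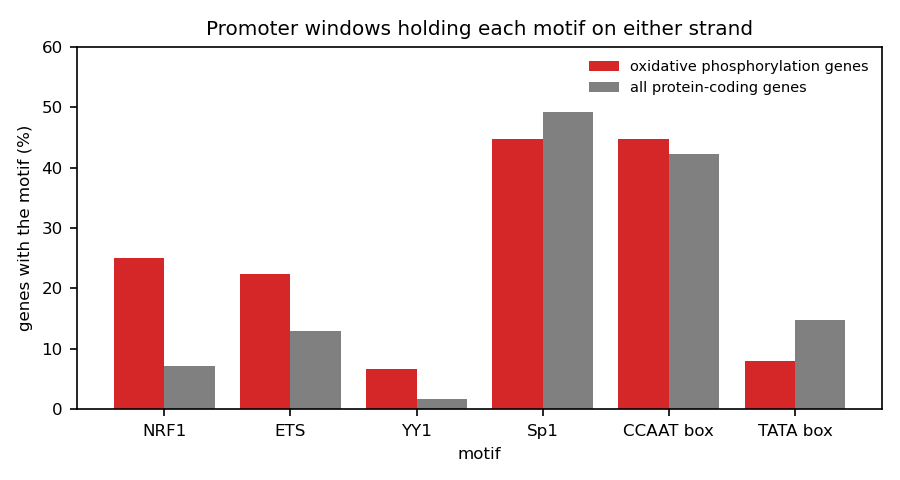
Share of genes (y axis, percent) whose promoter window held each motif on either strand (x axis), for the 76 matched oxidative phosphorylation genes and for all protein-coding genes. NRF1 letters lay in 25% against 7.17%, and the TATA box in 7.89% against 14.8%.

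The windows below, all on GRCm38 and written 5′ to 3′ along the gene, are shown because they carry these differences among genes whose values follow. Capitals mark a match to any of the 6 motifs on either strand. Cox6a1 (chr5:115348909-115349208, minus strand) holds NRF1 and ETS letters. Sdha (chr13:74350191-74350490, minus strand) holds 3 NRF1 matches. Atp5g1 (chr11:96075582-96075881, minus strand) and Atp5g3 (chr2:73911277-73911576, minus strand) encode the same mature protein of the ATP synthase ring, but NRF1 letters lie in the window of Atp5g3 and not in that of Atp5g1, which holds 5 CCAAT matches. Cox8b (chr7:140900397-140900696, minus strand), a muscle-type subunit, holds a TATA box alone.
Cox6a1: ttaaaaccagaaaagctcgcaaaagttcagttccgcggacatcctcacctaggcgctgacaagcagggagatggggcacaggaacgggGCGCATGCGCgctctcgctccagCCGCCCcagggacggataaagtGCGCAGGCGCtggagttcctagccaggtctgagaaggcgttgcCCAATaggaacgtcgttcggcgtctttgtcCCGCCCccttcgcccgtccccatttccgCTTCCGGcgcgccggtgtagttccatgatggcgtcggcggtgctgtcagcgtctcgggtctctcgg
Sdha: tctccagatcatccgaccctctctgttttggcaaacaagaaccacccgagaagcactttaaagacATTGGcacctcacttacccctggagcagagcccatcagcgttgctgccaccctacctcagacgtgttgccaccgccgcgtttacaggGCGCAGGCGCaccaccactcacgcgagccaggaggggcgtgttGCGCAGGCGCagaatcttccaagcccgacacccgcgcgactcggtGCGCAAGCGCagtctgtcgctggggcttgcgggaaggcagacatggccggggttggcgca
Atp5g1: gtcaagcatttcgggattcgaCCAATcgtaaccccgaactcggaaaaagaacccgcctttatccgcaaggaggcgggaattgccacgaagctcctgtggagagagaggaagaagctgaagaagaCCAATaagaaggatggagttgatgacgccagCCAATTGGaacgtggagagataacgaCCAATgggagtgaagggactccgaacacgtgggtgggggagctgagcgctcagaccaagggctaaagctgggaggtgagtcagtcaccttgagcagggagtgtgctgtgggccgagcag
Atp5g3: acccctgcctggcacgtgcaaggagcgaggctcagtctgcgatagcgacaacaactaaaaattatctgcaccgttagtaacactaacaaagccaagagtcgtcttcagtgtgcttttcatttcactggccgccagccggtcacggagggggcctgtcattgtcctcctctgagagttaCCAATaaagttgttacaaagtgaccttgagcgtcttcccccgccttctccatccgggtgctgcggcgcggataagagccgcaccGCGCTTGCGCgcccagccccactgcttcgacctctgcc
Cox8b: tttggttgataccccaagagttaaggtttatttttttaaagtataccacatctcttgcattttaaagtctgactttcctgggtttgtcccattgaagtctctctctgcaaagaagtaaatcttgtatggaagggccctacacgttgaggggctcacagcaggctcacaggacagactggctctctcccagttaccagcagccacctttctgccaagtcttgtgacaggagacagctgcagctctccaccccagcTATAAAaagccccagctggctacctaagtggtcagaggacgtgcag

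With median-of-ratios scaling most nuclear oxidative phosphorylation genes had slightly higher values in DKO glands, but no single gene passed the test. All 91 were tested, and 0 had an adjusted p under 0.05, against 2.90% of all rows called (1.02% higher and 1.88% lower). Among rows with a mean of at least 50 normalized counts, where 88 of the 91 lie, 3.77% were called and 1.58% were called higher. At an unadjusted p under 0.05 there were 5 genes, or 5.49%, against 12.2% of all rows, and all 5 were higher, against 4.92% of all rows. This count rested on single libraries, with 31 genes without DKO 1, 2 without DKO 4 or WT 1 and 1 without WT 5. The edgeR quasi-likelihood test and limma-voom also called 0, with 5 and 3 genes at an unadjusted p under 0.05. Those tests called few rows of any kind, 10 and 7 of 18606 against 539 by DESeq2.

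The log2 fold change was above 0 in 86 of the 91 genes (94.5%), against 50.2% of all rows and 54.8% of rows with a mean of at least 50, but scaling by total counts left 17 above 0. Its median was 0.17, with a range from -0.55 (Cox8b) to 0.85 (Cox6b2), and the median of all rows was 0.001. Under total counts the median of all rows moved to -0.23 and that of these genes to -0.071, and 86 of them still lay above the median of all rows. With total counts taken without the 10 most abundant rows the medians were 0.17 for these genes and 0.001 for all rows. For 87 genes the 95% interval lay within 2-fold in either direction, so larger changes were outside it, and the exceptions were the low-count genes Cox4i2, Cox6b2, Cox8b and Ndufa4l2.

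**Figure D2:**
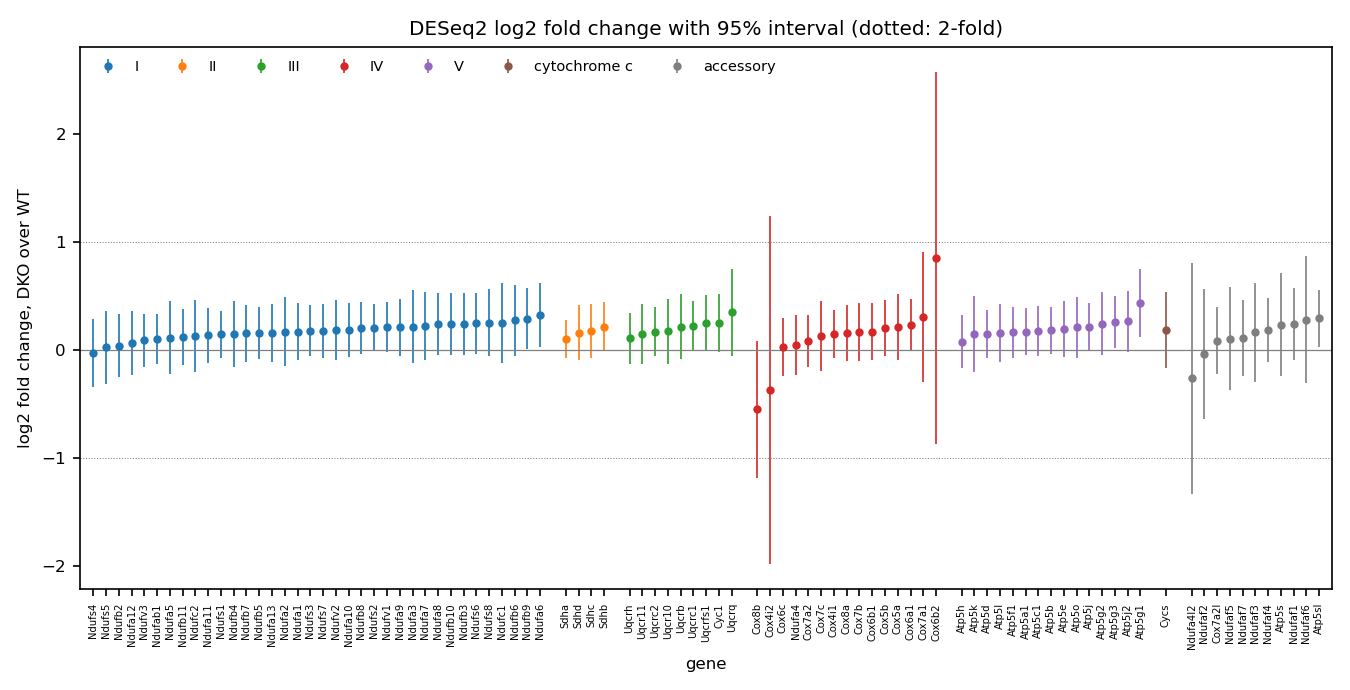
DESeq2 log2 fold change of DKO over WT (y axis) for each of the 91 genes (x axis, grouped by complex), with 95% intervals as bars and dotted lines at 2-fold. 86 points lie above 0 with median-of-ratios scaling, and 17 with total counts. The widest bars belong to genes with few counts.

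A single library carried most of this shift. DKO 4 was the highest of the 6 libraries for 83 of the 91 genes (91.2%), against 25% of all rows and 32.0% of rows with a mean of at least 50. On a log2 scale relative to the WT mean, the median gene lay at 0.048 in WT 1, 0.018 in WT 4, -0.062 in WT 5, 0.012 in DKO 1, 0.39 in DKO 4 and 0.11 in DKO 5. So DKO 1 lay among the WT glands, DKO 5 a little above and DKO 4 well above them. DKO 4 exceeded every WT gland in 88 genes, DKO 5 in 50 and DKO 1 in 14, and DKO 1 was below every WT gland in 18. Without DKO 4 the median fold change was 0.055 on the log2 scale, 66 genes were above 0 and 0 were called. Without DKO 1 the median was 0.26 and 1 gene was called, Atp5g1, where 4.06% of all rows were called.

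**Figure D3:**
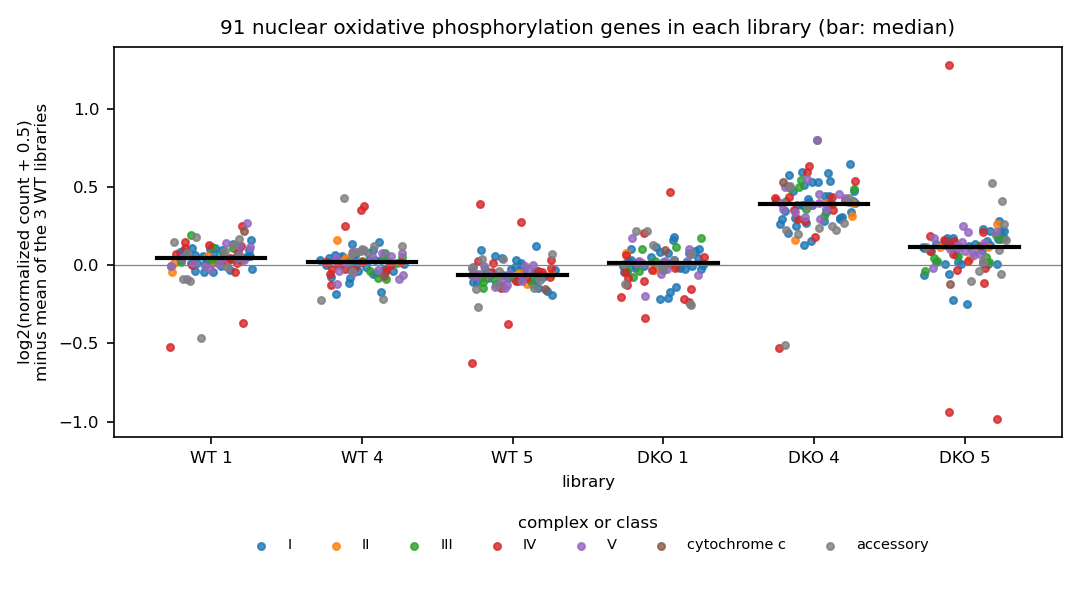
Each point is 1 of the 91 genes in 1 library (x axis), as log2(normalized count + 0.5) minus the mean of the 3 WT libraries (y axis), coloured by complex, with a bar at each library's median. The medians run from -0.062 to 0.048 in WT and stand at 0.012, 0.39 and 0.11 in DKO 1, DKO 4 and DKO 5.

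The groups did not overlap, with every DKO gland above every WT gland, in 12 genes (13.2%), against 9.85% of all rows and 12.8% of rows with a mean of at least 50. These were Atp5g1, Atp5g3, Atp5s, Atp5sl, Cox6b2, Ndufa6, Ndufaf1, Ndufb8, Ndufb9, Ndufs6, Ndufv1 and Uqcrc1. In 0 genes did every DKO gland lie below every WT gland, against 10.5% of all rows. Without DKO 4 the same 12 genes (13.2%) had no overlap, against 14.5% of all rows and 17.5% of rows with a mean of at least 50. Summed over the 91 genes, normalized counts were 97879 ± 4383 (SD, n = 3) in WT and 110535 ± 15785 in DKO, and the groups overlapped. DKO 1 and DKO 5 had sums of 98056 and 105269. As a share of all counts the sum was 0.396% ± 0.0298 in WT and 0.378% ± 0.0324 in DKO, so the order of the means turned with the scaling and the groups overlapped. In DKO 1 and DKO 5 the shares were 0.366% and 0.353%.

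The 5 complexes lay close together. Their median log2 fold changes were 0.18 for complex I, 0.16 for II, 0.21 for III, 0.15 for IV and 0.18 for V, and all 5 were below 0 with total counts. Without DKO 4 they were 0.062, 0.055, 0.063, 0.019 and 0.063 in the same order. The share of the summed counts that each complex took was close in both groups, and no test was made of it: complex V held 40.3% ± 0.460 (SD, n = 3) in WT and 40.6% ± 0.0823 in DKO, complex I 24.1% ± 0.227 and 24.2% ± 0.0976, complex IV 15% ± 0.398 and 14.6% ± 0.360, complex III 10.3% ± 0.0954 and 10.4% ± 0.211, and complex II 7.02% ± 0.186 and 6.92% ± 0.411. Across all 6 libraries, DKO 4 included, the share ran from 39.9% to 40.8% for complex V, from 23.9% to 24.3% for complex I, from 14.2% to 15.3% for complex IV and from 10.2% to 10.6% for complex III. Complex II had its lowest share in DKO 4, 6.45%, and ran from 6.84% to 7.21% in the other libraries.

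Complex I takes electrons from NADH, and 35 of its 36 subunit genes had a log2 fold change above 0, from -0.03 to 0.32, against 27 without DKO 4 and 6 with total counts. 0 were called. Ndufa6, an accessory subunit, showed 839, 868 and 785 normalized counts in WT and 881, 1299 and 935 in DKO. All DKO glands were above the WT glands, DKO 4 by far the most. Its log2 fold change was 0.32 ± 0.15 (SE) with a DESeq2 adjusted p of 0.299, and 0.13 without DKO 4. Ndufb9, another accessory subunit, had 1518, 1491 and 1271 in WT and 1539, 2135 and 1546 in DKO. Here DKO 1 and DKO 5 lay just above the highest WT gland. The log2 fold change was 0.29 ± 0.15 (adjusted p of 0.357), and 0.11 without DKO 4. Reads of Ndufb9 may be shared with Gm49356, a model on the same strand whose exons overlap it. The subunit below 0 was Ndufs4 (-0.03 ± 0.16, or -0.23 without DKO 4), which is needed for stable assembly of the NADH-oxidising module.

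Complex II, succinate dehydrogenase, also belongs to the tricarboxylic acid cycle and has no subunit encoded in mitochondrial DNA. All 4 of its genes had a log2 fold change above 0, also without DKO 4, but 0 did with total counts, and 0 were called. Its flavoprotein Sdha showed 3228, 3308 and 3071 normalized counts in WT and 3231, 3580 and 3476 in DKO. The groups overlapped, and the log2 fold change was 0.10 ± 0.09 (SE) and the DESeq2 adjusted p 0.741. Sdhb, the iron-sulfur subunit, had 1591, 1837 and 1509 in WT and 1734, 2035 and 1963 in DKO. DKO 1 lay below WT 4, and the log2 fold change was 0.22 ± 0.12 (adjusted p of 0.399). Sdhc and Sdhd are the membrane anchors. Sdhc had 1018, 1023 and 966 in WT and 982, 1317 and 1087 in DKO, and Sdhd had 1059, 1031 and 966 in WT and 1022, 1338 and 1053 in DKO. Their log2 fold changes were 0.17 ± 0.13 and 0.16 ± 0.13, with DKO 4 high in both, and 0.04 and 0.03 without DKO 4. Sdhb kept 0.17 and Sdha 0.07.

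Complex III passes electrons from ubiquinol to cytochrome c, and all 9 of its genes had a log2 fold change above 0, from 0.10 to 0.35, against 6 without DKO 4 and 3 with total counts. 0 were called. Uqcrc1, a core protein, showed 1939, 1958 and 1675 normalized counts in WT and 1989, 2429 and 2082 in DKO. All DKO glands were higher, DKO 1 by little, and the log2 fold change was 0.22 ± 0.12 (SE) and the DESeq2 adjusted p 0.379. Uqcrfs1, the Rieske iron-sulfur protein, had 1218, 1232 and 1125 in WT and 1211, 1675 and 1358 in DKO. DKO 1 lay among the WT glands, and the log2 fold change was 0.25 ± 0.13 (adjusted p of 0.401). Uqcrh, the hinge protein, had 1405, 1411 and 1343 in WT and 1314, 1723 and 1435 in DKO, so that DKO 1 was the lowest gland and DKO 4 the highest. Without DKO 4 these log2 fold changes were 0.13, 0.11 and -0.01. Cyc1, the cytochrome c1 that hands electrons on, stood at 0.25 ± 0.14, or 0.11 without DKO 4. Cycs, the mobile carrier itself, had 549, 450 and 425 in WT and 504, 682 and 435 in DKO, an overlap with a log2 fold change of 0.19 ± 0.18, or -0.02 without DKO 4.

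Complex IV, cytochrome c oxidase, is the complex with tissue isoforms, and 13 of its 15 genes had a log2 fold change above 0, against 9 without DKO 4 and 2 with total counts. 0 were called. The widely used isoforms made up nearly all counts. Cox4i1 showed 2498, 2515 and 2414 normalized counts in WT and 2443, 3157 and 2605 in DKO, or 0.14 ± 0.11 (SE) as a log2 fold change and 0.03 without DKO 4. Its lung and hypoxia isoform Cox4i2 had 4.95, 8.80 and 8.96 in WT and 5.69, 8.36 and 3.46 in DKO, too few reads for a firm value. Reads of Cox4i1 may be shared with Emc8, which overlaps it on the opposite strand, since the libraries were not stranded. Cox6a1 had 1265, 1211 and 1112 in WT and 1239, 1607 and 1357 in DKO, a log2 fold change of 0.23 ± 0.12 with a DESeq2 adjusted p of 0.412, and 0.12 without DKO 4. Its muscle isoform Cox6a2 had 4 counts in all 6 libraries together and, like Cox7b2 and Cox8c at 0, was outside the filtered table. Cox6b1 (0.17 ± 0.13), Cox7a2 (0.08 ± 0.12), Cox7b (0.16 ± 0.14) and Cox8a (0.15 ± 0.13) showed the same small values. Of these, Cox7a2 stood at -0.04 without DKO 4, and the other 3 at 0.02.

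The muscle and testis isoforms were low and did not share a direction. Cox8b, used in muscle and brown fat, showed 72.2, 91 and 54.6 normalized counts in WT and 61.7, 49.1 and 36.9 in DKO. DKO 1 lay between WT 1 and WT 5, so the groups overlapped, and its log2 fold change was -0.55 ± 0.32 (SE) with a DESeq2 adjusted p of 0.481. It was also -0.55 without DKO 4, and the 95% interval ran from -1.19 to 0.08. Cox7a1, the heart and muscle isoform, had 84.1, 91.9 and 45.7 in WT and 81.6, 110 and 81.9 in DKO, with a log2 fold change of 0.30 ± 0.31, or 0.15 without DKO 4. The spread came mainly from WT 5, without which it was 0.05. Cox6b2, the testis isoform, had 2.97, 3.91 and 5.37 in WT and 5.69, 6.27 and 10.4 in DKO, and its interval from -0.87 to 2.58 shows how little so few reads can tell. The ratio of Cox8a to Cox8b was 14.5 ± 3.42 (SD, n = 3) in WT and 24 ± 7.55 in DKO, with overlap between the groups. Of 7 skeletal muscle markers, 4 could be tested and 0 were called, their summed normalized counts were 45.5 to 54.8 in WT and 49.1 to 49.6 in DKO, and Myh4 and Actn3 were at 0 in every library. The part of muscle tissue in these values was not tested.

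Complex V makes ATP, and all 15 of its genes had a log2 fold change above 0, from 0.08 to 0.43, against 13 without DKO 4 and 3 with total counts. 0 were called. Atp5g1, Atp5g2 and Atp5g3 encode the ring subunit c, which turns as protons pass. Atp5g1 (chr11:96068852-96075670 on GRCm38) showed 1166, 1175 and 1011 normalized counts in WT and 1258, 1939 and 1326 in DKO. Every DKO gland was above every WT gland, and DKO 4 stood far above the other DKO glands. Its log2 fold change was 0.43 ± 0.16 (SE), the largest above 0 among genes with a mean of at least 50, with a DESeq2 adjusted p of 0.123. Without DKO 4 it was 0.21 with an adjusted p of 0.497, and without DKO 1 it was 0.55 with an adjusted p of 0.0445. Atp5g3 had 1506, 1541 and 1437 in WT and 1603, 2108 and 1653 in DKO, again without overlap. Its log2 fold change was 0.26 ± 0.12 (adjusted p of 0.311), and 0.12 without DKO 4. Atp5g2 had 464, 415 and 409 in WT and 435, 588 and 497 in DKO, with overlap and a log2 fold change of 0.24 ± 0.15, or 0.12 without DKO 4. The catalytic beta subunit Atp5b had 14150, 14256 and 12744 in WT and 13972, 17862 and 14802 in DKO, a log2 fold change of 0.18 ± 0.11, or 0.07 without DKO 4.

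The 11 accessory genes centred on a log2 fold change of 0.16 (median), with 9 above 0 (7 without DKO 4, 3 with total counts) and 0 called, and DKO 4 was the highest library in 7 of them. Atp5sl (Dmac2), an assembly factor of the complex I membrane arm despite its name, showed 414, 397 and 356 normalized counts in WT and 452, 461 and 517 in DKO. All DKO glands were higher and DKO 5 was the highest. Its log2 fold change was 0.29 ± 0.13 (SE), or 0.31 without DKO 4, and the DESeq2 adjusted p was 0.274. Ndufaf1, another complex I assembly factor, had 158, 185 and 168 in WT and 197, 201 and 204 in DKO, close together within DKO, with 0.24 ± 0.17 and 0.24 without DKO 4. Cox7a2l had 1096, 1268 and 1134 in WT and 976, 1542 and 1188 in DKO, where DKO 1 was the lowest gland. It stood at 0.08 ± 0.16, and at -0.11 without DKO 4. Ndufa4l2 (-0.26 ± 0.55) and Ndufaf2 (-0.04 ± 0.31) were below 0, at -0.13 and -0.18 without DKO 4, and Ndufa4l2 overlaps Shmt2 on the opposite strand.

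Levels could be compared between genes only per length, as normalized counts per kilobase of the mean annotated transcript (GENCODE M21). For 9 genes, Atp5g1 and Sdhc among them, annotated transcripts differ 2-fold or more in length, so these were left out of the order and of the medians that follow. Atp5b was the highest of the others, at 7159 ± 440 (SD, n = 3) in WT and 8113 ± 1070 in DKO. Atp5a1, the alpha subunit beside it, followed at 3865 ± 285 in WT, and then came Cox4i1 at 3279 ± 71.7 and Uqcrh at 2921 ± 79.6. Cox8a at 2804 ± 208, Ndufa4 at 2753 ± 83.8 and Cox6b1 at 2708 ± 190 were within each other's spread. Ndufb9 at 2026 ± 192 and Ndufa6 at 1959 ± 99.5 were the highest of complex I and within each other's spread, and Sdhb led complex II at 1441 ± 149. The median gene stood at 1959 in complex V, 1736 in IV, 1393 in III, 1143 in II, 749 in I and 81.3 among the accessory genes, over all 6 libraries. Cycs stood at 152 ± 21 in WT. Exons of 31 genes overlap another gene, 28 of them on the opposite strand, where unstranded reads cannot be told apart.

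**Figure D4:**
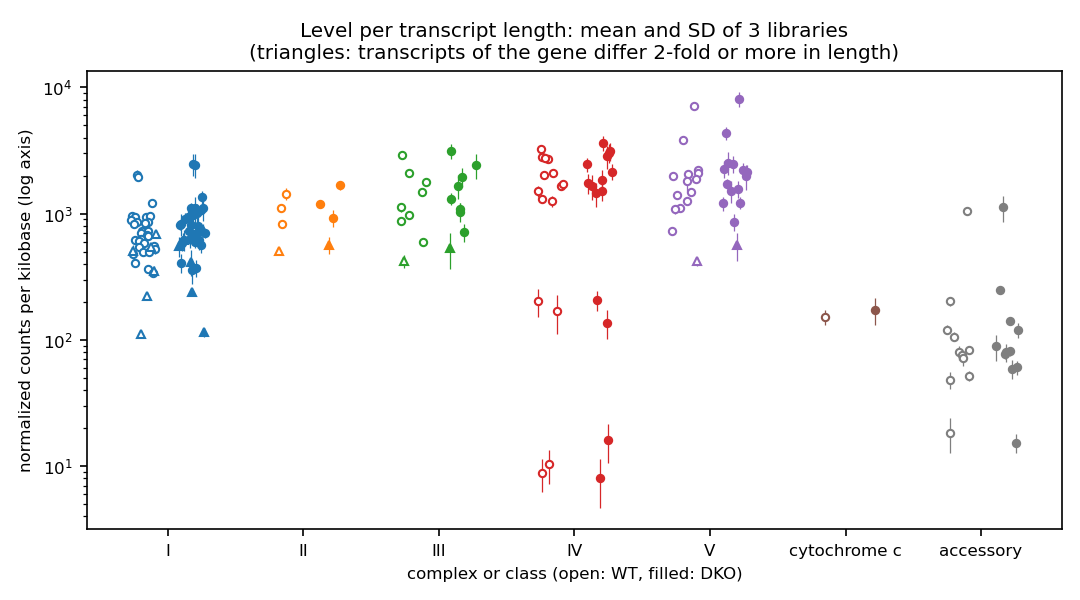
Normalized counts per kilobase (y axis, log scale) of each gene, by complex (x axis), as mean and SD of 3 WT (open) and 3 DKO (filled) libraries; triangles mark genes with transcripts that differ 2-fold or more in length. Atp5b is the highest at 7159 in WT, and the accessory genes are lowest as a class, with a median of 81.3.

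The partners encoded in mitochondrial DNA were also higher in value. Of 13 such genes 11 were tested, all 11 had a log2 fold change above 0 (9 with total counts) with a median of 0.35 (0.28 without DKO 4, 0.11 with total counts), and 2 were called higher by DESeq2. mt-Nd2, a complex I membrane subunit, showed 6367, 7188 and 6990 normalized counts in WT and 9056, 8667 and 9026 in DKO, with no overlap and little spread within DKO. Its log2 fold change was 0.38 ± 0.09 (SE), or 0.40 without DKO 4, and the adjusted p was 0.00136. mt-Nd1, also of complex I, had 18331, 20397 and 19195 in WT and 22296, 26386 and 24511 in DKO, or 0.34 ± 0.09 as a log2 fold change (adjusted p of 0.0195). Without DKO 4 that adjusted p was 0.0765. Both calls were lost with total counts (adjusted p of 0.372 for mt-Nd2 and 0.486 for mt-Nd1), with edgeR (0.160 and 0.200) and with limma-voom (0.158 and 0.217). The call of mt-Nd1 was also lost without WT 1 (0.242), WT 5 (0.191) or DKO 5 (0.145). The sum of the 91 nuclear genes over that of the mitochondrial genes was 0.589 ± 0.0620 (SD, n = 3) in WT and 0.527 ± 0.0188 in DKO. Every DKO gland lay below every WT gland, but narrowly, with DKO 4 at 0.544 and WT 4 at 0.545. No test was made of this ratio. In DKO 1 and DKO 5 it was 0.530 and 0.506. The mitochondrial sum rests mainly on mt-Co1, at 99693 ± 8379 in WT and 127454 ± 22953 in DKO. Other genes of the list held almost no counts, with means over the 6 libraries of 31.5 for mt-Co3, 16.8 for mt-Nd3, 6.52 for mt-Co2 and 3.24 for mt-Atp6. The cause cannot be told from the deposited table, and the fold changes of these genes carry little weight.

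Other genes of the pathway gave 0 calls. All 13 tricarboxylic acid cycle genes had a log2 fold change above 0, with a median of 0.13, but 0 did with total counts. Without DKO 4 the median was 0.070 and 12 were above 0, and DKO 4 was the highest library in 12 of the 13. Among 36 tested assembly factors outside the symbol rule, 28 were above 0 with a median of 0.11, or 0.03 without DKO 4 and -0.13 with total counts. The 12 regulators of mitochondrial genes, among them the coactivator Ppargc1a and the factors Nrf1, Gabpa and Yy1 named above for their motifs, had a median of 0.01 with 7 above 0. Without DKO 4 the median was -0.030 with 5 above 0, and with total counts it was -0.23 with 2 above 0 and 1 called lower. Yy1 stood at -0.17 ± 0.12 (SE), with every DKO gland below every WT gland, as in 10.5% of all rows. Nrf1 stood at -0.09 ± 0.13, Gabpa at 0.01 ± 0.11 and Ppargc1a at 0.27 ± 0.20. Esrra, the estrogen-related receptor of mitochondrial programmes, was at 0.28 ± 0.11 (DESeq2 adjusted p of 0.161).

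Markers of the gland's cell types differed between the groups too. Of 8 acinar markers, 4 were called higher (Agr2, Agt, Aqp5 and Mucl1), DKO 4 was the highest library in 7, and their summed normalized counts were 8373258 to 10197712 in WT and 10667268 to 13149661 in DKO. Nearly all of that sum is Spt1, at 8298696 to 10113751 in WT and 9948667 to 12174229 in DKO, and without Mucl1 the sums overlapped (8373019 to 10197649 and 10034622 to 12278882). The water channel Aqp5 had a log2 fold change of 0.54 ± 0.15 (SE), the angiotensin precursor Agt 1.23 ± 0.13, the disulfide isomerase Agr2 1.11 ± 0.18 and Mucl1 12.54 ± 0.61, by DESeq2. The call of Aqp5 was lost without DKO 4 (adjusted p of 0.112), DKO 5 (0.0607), WT 1 (0.182) or WT 5 (0.283) and with total counts (0.124), and edgeR and limma-voom called 2 of the 8, Agt and Mucl1. The 8 granular duct markers reported were all called lower (Egf, Klk1b3, Klk1b4, Klk1b5, Klk1b21, Klk1b22, Klk1b24 and Klk1b26), from -1.17 to -0.68, with sums of 241082 to 252508 in WT and 123374 to 165213 in DKO. edgeR called 2 of them and limma-voom 3. Of 10 tested markers of striated and other ducts, 2 were called lower, the receptor Kit at -0.63 ± 0.13 and the sodium channel subunit Scnn1g at -0.55 ± 0.13. Both calls were lost with edgeR and limma-voom, and that of Scnn1g also without WT 5 (adjusted p of 0.0810) and under the replicate block (0.0591). The 10 had 0 values above 0, and their sums were 8551 to 8704 in WT and 6634 to 7588 in DKO, with Slc26a4 at 0 in every library. Of 8 myoepithelial markers 7 were called lower (Acta2, Cnn1, Krt14, Myh11, Myl9, Mylk and Tagln), with a median of -0.74 and sums of 10807 to 11639 in WT and 5956 to 7808 in DKO. edgeR and limma-voom called 0 of them, with adjusted p from 0.0562 and 0.0560 upward (Cnn1), and the call of Krt14 was lost under the replicate block (0.114) and without any 1 of the libraries except DKO 1 (0.0503 to 0.124). Of 6 tested B and plasma cell markers 1 was called lower (Ms4a1), with sums of 760 to 1813 in WT and 183 to 1029 in DKO. Ms4a1 rested on WT 1, with 60.4 normalized counts against 0.978 and 5.37 in WT 4 and WT 5. It was not tested without WT 1, and its call was lost without WT 5 or any 1 DKO library, with edgeR, with limma-voom and under the replicate block. Endothelial markers (0 of 4 called, 1246 to 1561 in WT and 1484 to 1892 in DKO) and adipocyte markers (0 of 2 tested of 7 called, 93.0 to 161 in WT and 138 to 178 in DKO) completed the lists. The part of these cell types in the oxidative phosphorylation values was not tested.

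**Figure D5:**
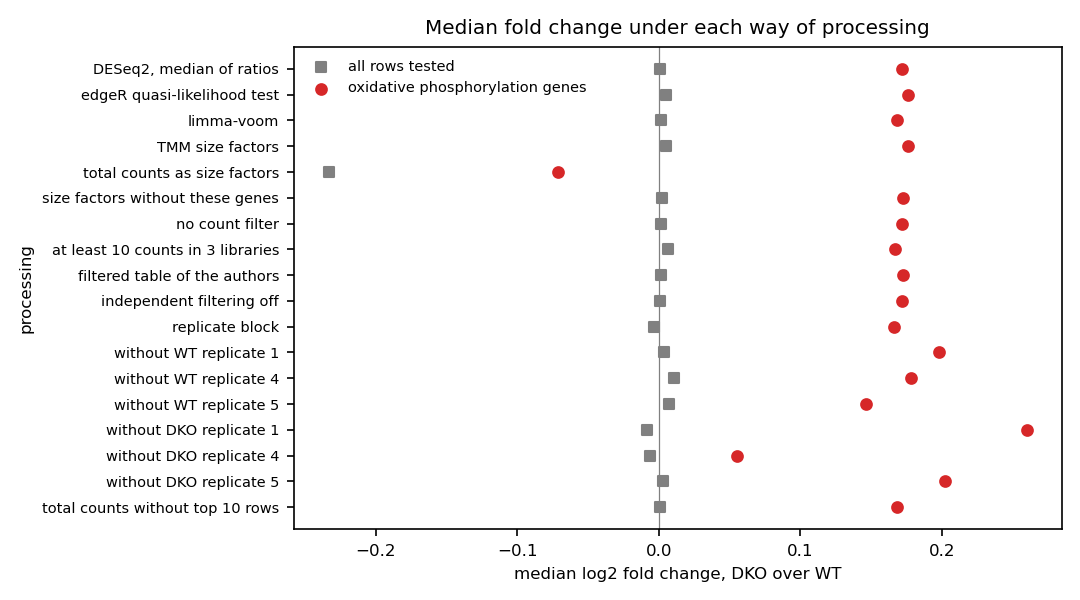
Median log2 fold change of DKO over WT (x axis) of the 91 genes (circles) and of all rows tested (squares) under each way of processing (y axis). The circles lie between 0.055 and 0.26 except with total counts, where they stand at -0.071 and all rows at -0.23.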

How the data were processed

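Whole female SMGs were sequenced from unstranded Nextera XT libraries on a HiSeq2500. The authors deposited whole-number read counts per gene symbol, unfiltered (43280 rows) and filtered (17527 rows). The submitters' processing notes name STAR 2.5.2a, DESeq2, edgeR and limma. The counting tool and annotation are not given in the sources used here. A deposited table of normalized values was not used.

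Groups follow the labels, 3 libraries each. Rows with at least 10 counts in all were fitted with DESeq2 1.42.0 (R 4.3.3) on group alone, with median-of-ratios scaling, two-sided Wald tests, Benjamini-Hochberg adjustment over all rows, a threshold of 0.05 and independent filtering at 0.1, without shrinkage. Normalized counts are counts divided by size factors (0.867 to 1.12). Alternatives were edgeR 4.0.16, limma 3.58.1 (voom), other scalings and filters, the replicate block and each library left out. Fold changes are on the log2 scale. Replicates of a group differed beyond sampling noise, with a chi-square per degree of freedom of 18.3 to 47.6.

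The genes, lists and tests were chosen with earlier results of these data known. Genes given with values in every library are those called, the highest per length and the 2 with the smallest p in each class, isoforms of 1 subunit and the Sdh genes. The count of genes above 0, the lists under each setting and total counts without the 10 most abundant rows were added after seeing the data. The fits were tested on simulated data. There the share of false calls was above the threshold in all 3 tools, most of all in DESeq2, and the bound that the DESeq2 test had to meet was loosened after this was seen. 1 marker of the lists is not reported here.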

Additional observations from a re-analysis of the deposited data

How the results depend on the processing

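Scaled by total counts, the log2 fold changes turned to medians of -0.071 for all 91 genes, -0.065 for complex I, -0.079 for II, -0.038 for III, -0.096 for IV and -0.062 for V, while 17 genes instead of 86 were above 0. All rows moved to -0.23, and calls over all rows split into 62 higher and 1407 lower instead of 189 and 350. Leaving out 1 library at a time, the median of the 91 ranged from 0.055 (without DKO 4) to 0.26 (without DKO 1), genes above 0 from 66 to 88, and genes called higher from 0 to 1 (Atp5g1, without DKO 1), with 0 called lower. Over all rows the calls ranged from 149 (without WT 5) to 817 (without WT 4). edgeR called 10 rows, limma-voom 7 and DESeq2 539. The cause was not tested. The replicate number, added as a replicate block, gave a median of 0.17, 0 genes called and 343 calls over all rows. Deviations of libraries with the same number correlated at -0.11, -0.02 and -0.25, and no library correlated best with its own number. With deviations taken from means of 3 libraries, this cannot decide whether the numbers pair the glands. All other settings kept 0 calls and a median from 0.17 to 0.18. Genes with few counts were limited by depth.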
